A study of Rattus norvegicus with 11 samples.

Results

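The chemokines Ccl2, Ccl7, Cxcl1, Cxcl10, Cxcl12 and Cx3cl1 and the cytokine interleukin 6 (Il6) were followed in REF52 cells, an established line of rat embryo fibroblasts, on 11 Affymetrix rat expression arrays. Members were taken by gene symbol, as every probe set whose only symbol in the platform annotation is one of these 7 names. Of the 7 genes, 6 are on the array, with 8 of the 15866 probe sets tested. The tested probe sets cover 10411 genes by a single symbol. Ccl7 has no probe set of its own here and was not analysed. Cxcl12 has 3 probe sets and is represented by the brightest, 1369633_at, with the other two given beside it; the other members have 1 each.

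Cells were grown in 10% fetal bovine serum and held in 0.25% serum for 48 hours, and all were then infected with an adenovirus. The virus expressed E2F1, a transcription factor that drives entry into S phase, or was the control virus (CMV). The medium given after infection was deprivation medium, serum with LY294002, an inhibitor of phosphoinositide 3-kinase, or serum without it. The groups are thus E2F1 in deprivation medium (2 arrays) against control virus in deprivation medium (1 array), E2F1 in serum with LY294002 (2) against control virus in serum with LY294002 (2), and E2F1 in serum (2) against control virus in serum (2). The sources used here give no dose of LY294002, no serum content of that last medium and no time of harvest. Nothing says that both arrays of a group stem from separate cultures, and the p-values then cover the spread between arrays alone, which could be technical.

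Chemokines are small secreted proteins that attract leukocytes through receptors coupled to G proteins, and fibroblasts release several of them when injured or exposed to bacterial products. Most inducible ones, like Il6, are switched on by the transcription factor NF-kappaB once its inhibitor is phosphorylated and degraded, whereas Cxcl12 is made by resting stromal cells. Il6 acts through its receptor and the shared subunit Il6st (gp130) on JAK kinases and the transcription factor Stat3. In RNA from whole cultures, a lower level per cell and fewer cells with the transcript cannot be told apart.

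The signals are the authors' array intensities on a linear scale, with a trimmed mean of 500 on every array and medians of 173 to 208. Of 18 fibroblast markers, 12 lay above the median of all probe sets on every array, among them Col1a1, Fn1 and Vim; Col6a1, Thy1, Lum and Dcn lay below it on every array. None of 16 leukocyte, 6 endothelial or 8 epithelial markers, 0 in each list, lay above the median on every array. The summed signal of the leukocyte markers was 1262 to 1527 on E2F1 arrays and 1211 to 1872 on control virus arrays, and that of the fibroblast markers was 103201 to 135745 on E2F1 arrays and 115186 to 162836 on control virus arrays. The sums were 289.97 to 409 (E2F1) and 274 to 350.01 (control virus) for endothelial markers, and 207 to 472 (E2F1) and 255 to 705 (control virus) for epithelial markers. With E2F1, averaged over media, the fibroblast markers Pdgfrb (log2 change -1.90 ± 0.36, adjusted p = 0.0109) and Sparc (-0.75 ± 0.13, 0.00891) fell, the list having a median of -0.29 against -0.04 over all probe sets. The endothelial markers Kdr (0.63 ± 0.12, 0.0130) and Tie1 (0.47 ± 0.13, 0.0391) rose and the leukocyte marker Ptprc fell (-0.68 ± 0.19, 0.0431; 0.33, 0.214 on its other probe set), all 3 called probe sets with signals of at most 54.0 on every array. The part of these in the members' changes was not tested. No probe set carries E2f1 as its only symbol, so the level of the introduced gene was not analysed here. The log2 signal of 3' over 5' probe sets of control genes, a sign of RNA quality, was 0.90 on the second E2F1 array with LY294002, 0.51 to 0.76 on the 3 deprived arrays and 0.12 to 0.33 on the other 7. The second arrays with LY294002 stood apart from the first: the pairs correlated at r = 0.959 (E2F1) and 0.963 (control virus) over all probe sets, against 0.977 to 0.984 for the other 3 pairs, and 10.7% and 8.53% of probe sets differed over 2-fold within them, against 3.38% to 5.21%. For the members, E2F1 effects with LY294002 and changes with LY294002 are given with and without these arrays where the results turn on them.

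The sequences before the start sites of Cxcl1, Il6 and Cxcl10 are shown because these genes are known targets of NF-kappaB. That of Cxcl12 is shown because its main probe set fell with E2F1. RefSeq promoters (build GRCr8) were at hand for 6 of the 7 members. The promoter set used had no entry for Ccl2, although the gene itself is annotated. Each line holds the 250 bases before the annotated start, 5' to 3' on the gene's strand. Capitals mark matches to a kappaB consensus, to an interferon-stimulated element (GAAA, any 2 bases, then GAAA), to the AP-1 site TGANTCA or to the cAMP response element TGACGTCA, each searched on both strands.
Cxcl1 (chr14:17479322-17479571, minus strand): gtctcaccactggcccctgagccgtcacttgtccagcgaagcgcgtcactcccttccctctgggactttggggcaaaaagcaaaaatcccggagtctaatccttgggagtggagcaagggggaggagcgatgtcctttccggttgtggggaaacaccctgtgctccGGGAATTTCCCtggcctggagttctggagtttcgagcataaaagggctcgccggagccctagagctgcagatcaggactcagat
Il6 (chr4:5894576-5894825, minus strand): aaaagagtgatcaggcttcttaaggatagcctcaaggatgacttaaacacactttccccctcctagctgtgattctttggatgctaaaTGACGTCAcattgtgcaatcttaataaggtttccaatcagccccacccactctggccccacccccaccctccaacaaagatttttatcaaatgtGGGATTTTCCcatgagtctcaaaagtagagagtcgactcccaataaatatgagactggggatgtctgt
Cxcl10 (chr14:15988816-15989065, plus strand): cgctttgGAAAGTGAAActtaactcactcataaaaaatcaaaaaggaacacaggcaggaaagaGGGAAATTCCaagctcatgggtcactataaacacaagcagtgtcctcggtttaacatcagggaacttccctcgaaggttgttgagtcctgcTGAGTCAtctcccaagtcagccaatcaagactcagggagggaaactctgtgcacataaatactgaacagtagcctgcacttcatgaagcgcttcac
Cxcl12 (chr4:152060531-152060780, plus strand): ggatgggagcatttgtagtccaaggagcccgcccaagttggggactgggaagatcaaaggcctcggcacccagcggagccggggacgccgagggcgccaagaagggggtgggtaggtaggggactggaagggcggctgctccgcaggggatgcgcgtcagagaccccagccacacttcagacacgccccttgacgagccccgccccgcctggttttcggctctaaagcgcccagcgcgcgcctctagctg

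A kappaB match was found in 3 of the 6 promoters: in Cxcl1 at 84 to 75 bases before the start, with an overlapping match on the other strand at 83 to 74, in Il6 at 68 to 59 and in Cxcl10 at 187 to 178. Of 33469 promoter windows of the same length, 3.54% hold one. Il6 also holds the cAMP response element at 162 to 155 (1.59% of windows). Cxcl10 holds the interferon-stimulated element at 243 to 234 (3.41%) and an AP-1 site at 96 to 90 (6.34%), and the AP-1 letters occur in the Ccl7 window too. None of the 4 forms of an E2F site searched (TTTCCCGC, TTTCGCGC, TTTGCCGC, TTTGGCGC; in 1.73% of windows) occurs in any of the 6 windows (0 of 6). The Cx3cl1 window (chr19:10242821-10243070, minus strand) lies inside the annotated gene (10233326-10244856). It is thus not the sequence before that gene's outermost start. The 3 genes with a kappaB match are known targets of NF-kappaB, so such matches could be foreseen. The windows of Ccl7, Cxcl12 and Cx3cl1 held no kappaB match, which does not show that NF-kappaB leaves these genes alone. These matches are descriptions of letters and say nothing of binding, and the part of NF-kappaB in the members' changes was not tested.

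Averaged over the 3 media, Cxcl1 and Il6 rose with E2F1 and the main probe set of Cxcl12 fell, while Ccl2, Cxcl10 and Cx3cl1 did not pass the test. These are 3 calls among 8 member probe sets, 2 higher and 1 lower, where 16.5% of all probe sets were called in this comparison by limma at an adjusted p under 0.05. The median log2 change of the 6 representative probe sets was 0.64, against -0.04 over all probe sets. Within media, Il6 in deprivation medium was the 1 member call, where 2.87% of all probe sets were called. With LY294002 (5.41% of all probe sets called) and in serum (0.353%), 0 of the 8 passed. In each, 2 of the 8 had an unadjusted p under 0.05, beside 3413 of all 15866 probe sets with LY294002 and 2465 in serum. With LY294002 both were probe sets of Cxcl12, and in serum they were the main probe set of Cxcl12 and that of Il6. The plot of log2 changes shows the E2F1 effects by medium.

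**Figure D1:**
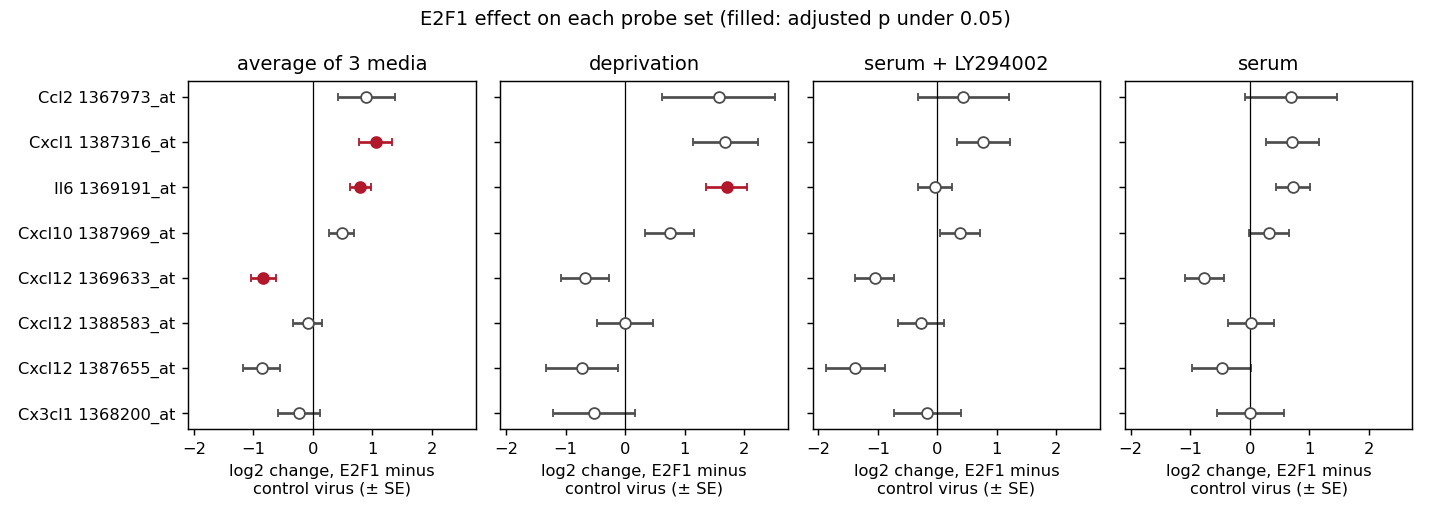
Log2 change (E2F1 minus control virus, x axis) of each of the 8 member probe sets, averaged over the 3 media and within each; bars are standard errors and filled points passed an adjusted p of 0.05. Cxcl1 (1.06), Il6 (0.80) and Cxcl12 1369633_at (-0.83) are filled in the average, and Il6 (1.71) in deprivation medium.

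Cxcl1, which draws neutrophils through the receptor Cxcr2, rose with E2F1. Its signals were 3588 and 3258 in E2F1 cells against 1052 in control virus cells in deprivation medium, and 4558 and 1775 against 2144 and 1284 with LY294002. In serum they were 5433 and 3902 in E2F1 cells against 2446 and 3191 in control virus cells. E2F1 arrays lay above control virus arrays in deprivation medium and in serum, and overlapped them with LY294002. With so few arrays such separation is common: the viruses did not overlap for 83.8% of all probe sets in deprivation medium, 44.1% with LY294002 and 54.9% in serum, which applies to each member below. On average Cxcl1 rose 2.08-fold with E2F1 (log2 change 1.06 ± 0.28, SE, adjusted p = 0.0363). By medium the log2 changes were 1.69 ± 0.54 in deprivation medium (adjusted p = 0.136), 0.77 ± 0.44 with LY294002 (0.369) and 0.72 ± 0.44 in serum (0.478). With LY294002 the change was 1.08 (0.145) without both second arrays and 0.46 (0.444) without both first. The averaged call was lost without any of 7 arrays (either deprived E2F1 array, either array of either virus in serum, or the second control virus array with LY294002), with log2 changes of 0.94 to 1.14 and adjusted p of 0.0558 to 0.0956, and with an offset of 1 (1.07, adjusted p = 0.0531).

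Il6, a cytokine of the acute phase response, stood out in deprived E2F1 cells. Its signals were 804 and 681 in deprived E2F1 cells against 216 in deprived control virus cells, 149 and 76.3 against 120.1 and 102 with LY294002, and 269 on both E2F1 arrays against 135 and 181 in serum. The deprived E2F1 arrays were the highest of all 11, and with LY294002 the viruses overlapped. Il6 lay above the array median on 5 of 11 arrays, those of deprived cells and of E2F1 cells in serum. It rose 1.74-fold on average (log2 change 0.80 ± 0.18, adjusted p = 0.0200) and 3.26-fold in deprivation medium (1.71 ± 0.35, adjusted p = 0.0468). The change was 0.73 ± 0.28 in serum (adjusted p = 0.278) and -0.04 ± 0.28 with LY294002 (0.964), where it was 0.27 (0.616) without both second arrays and -0.35 (0.482) without both first. Whether the effect differed between media was tested directly: the effect with LY294002 minus that in serum was -0.77 ± 0.40 on the log2 scale (adjusted p = 0.817), and that in deprivation medium minus that in serum was 0.98 ± 0.45 (adjusted p = 0.533). Neither passed.

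Both calls of Il6 rest on few arrays. The averaged one was lost without the first deprived E2F1 array or the first array of either virus in serum, with log2 changes of 0.73 to 0.80 and adjusted p of 0.0543 to 0.0623. The deprivation call sets 2 arrays against 1 and was lost without any of 8 arrays, whether of deprived E2F1 cells, of either virus in serum or of control virus with LY294002 (1.59 to 1.82, adjusted p 0.0574 to 0.201).

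**Figure D2:**
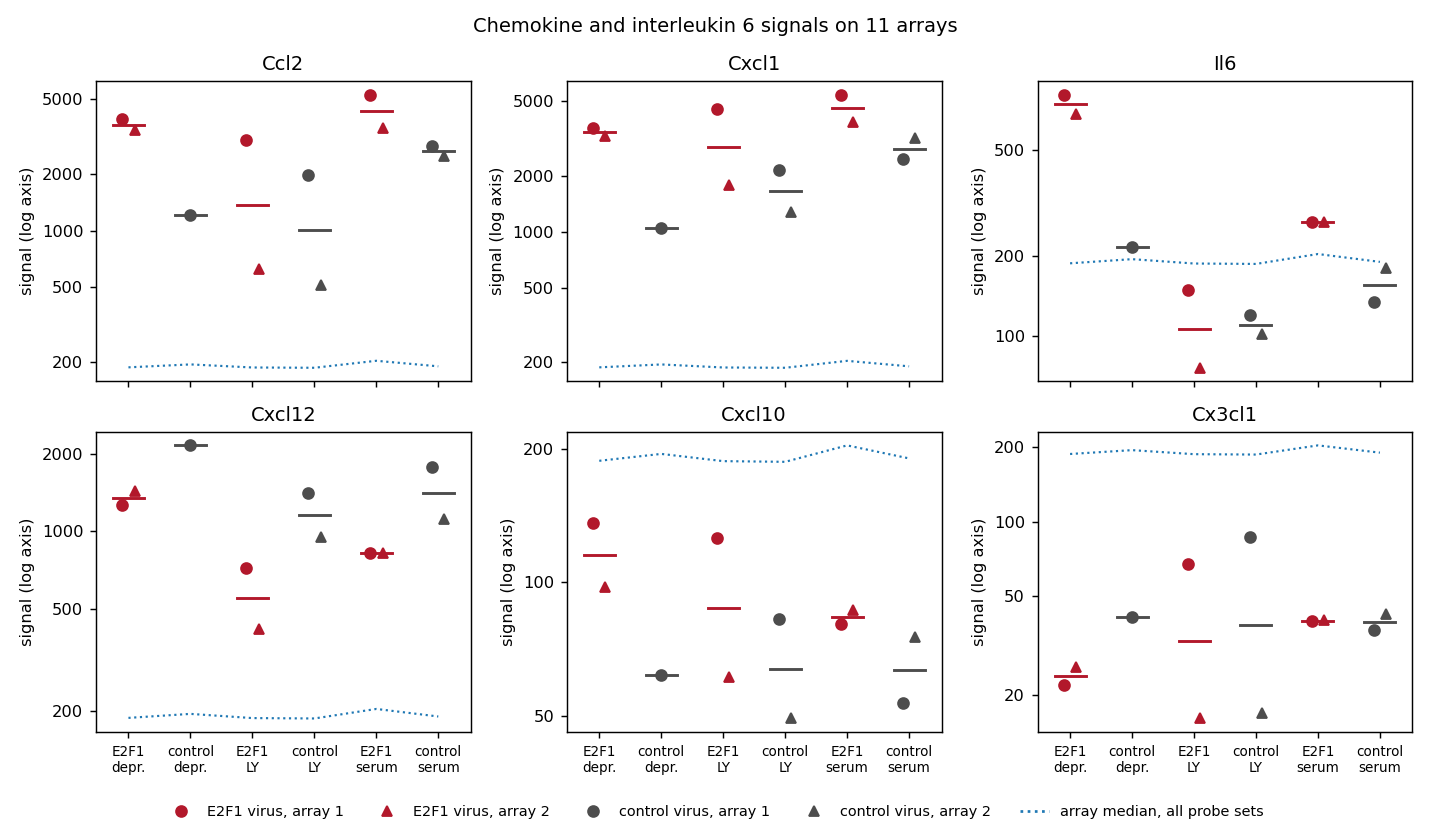
Signal (log axis) of the representative probe set of each member on the 11 arrays by virus and medium (depr., deprivation medium; LY, serum with LY294002); circles are first and triangles second arrays, bars the geometric mean of a group and the dotted line the median of all probe sets. Il6 reached 804 and 681 in deprived E2F1 cells, and Cxcl10 and Cx3cl1 stayed below the median on all 11 arrays.

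Ccl2, the ligand of Ccr2 that recruits monocytes, had a higher mean with E2F1 in each medium but did not pass the test. Its signals were 3904 and 3399 in E2F1 cells against 1214 in control virus cells in deprivation medium, and 5265 and 3516 against 2813 and 2499 in serum. With LY294002 they were 3012 and 623 in E2F1 cells against 1969 and 514 in control virus cells. E2F1 arrays lay above control virus arrays in deprivation medium and in serum and overlapped them with LY294002. The averaged log2 change was 0.90 ± 0.48 (adjusted p = 0.254). By medium it was 1.57 ± 0.95 in deprivation medium, 0.44 ± 0.77 with LY294002 and 0.70 ± 0.77 in serum, with adjusted p of 0.393, 0.812 and 0.725. With LY294002 it was 0.61 (0.350) without both second arrays and 0.27 (0.687) without both first. Comparing arrays of the same number, E2F1 was 1.53 times control virus between the first arrays with LY294002 and 1.21 times between the second.

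The 2 arrays with LY294002 of each virus disagreed on Ccl2. The first exceeded the second 4.83-fold in E2F1 cells and 3.83-fold in control virus cells, against 1.13-fold to 1.497-fold in the other pairs. These differences were larger than those of 99.6% and 98.9% of all probe sets on the same pairs. Without both second arrays the averaged Ccl2 change was 0.96 (adjusted p = 0.0161), and without both first arrays 0.85 (0.0207); both fits were added after seeing the data, and they leave 1 array for each virus with LY294002, assumed to vary like the others. The 3' to 5' difference was 0.90 on the second E2F1 array with LY294002 and 0.33 on the second control virus array with it. Its part in the Ccl2 signals was not tested.

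**Figure D3:**
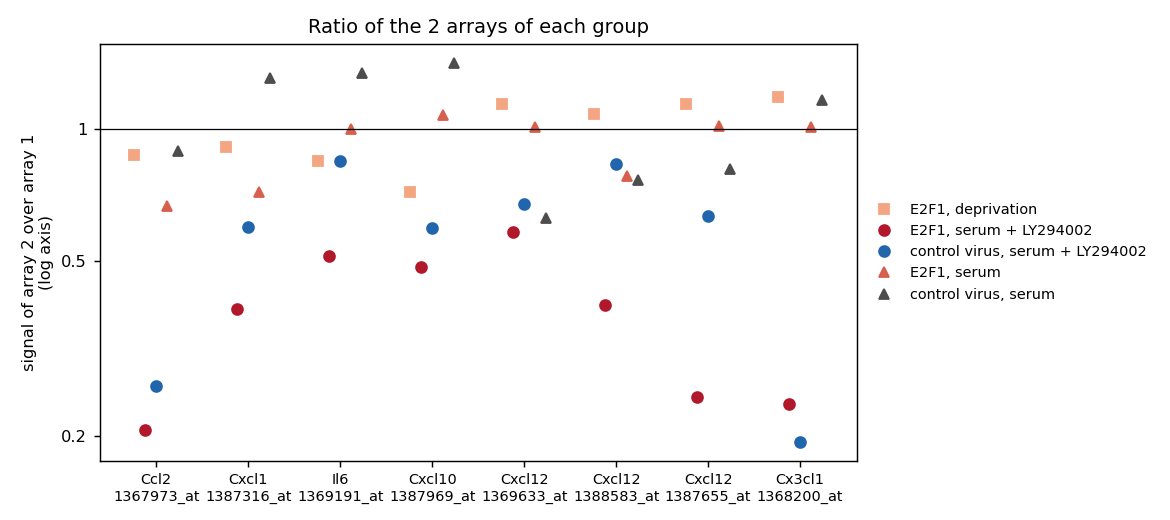
Signal of array 2 over array 1 (log axis) for each member probe set in the 5 groups with 2 arrays. Ccl2 lies at 0.207 and 0.261 in the pairs with LY294002 (circles) and between 0.668 and 0.888 in the others; Cx3cl1, with signals of 16.02 to 87.0, also splits these pairs.

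Cxcl12, a ligand of Cxcr4 and of the scavenger receptor Ackr3 that holds progenitor cells and lymphocytes near stroma, moved the other way. On 1369633_at its signals were 1264 and 1438 in E2F1 cells against 2158 in control virus cells in deprivation medium, 717 and 418 against 1404 and 949 with LY294002, and 819.7 and 826 against 1778 and 1114 in serum. E2F1 arrays lay below control virus arrays in each of the 3 media. It fell 1.78-fold on average (log2 change -0.83 ± 0.20, adjusted p = 0.0296), with changes of -0.67 ± 0.40, -1.05 ± 0.33 and -0.76 ± 0.33 in deprivation medium, with LY294002 and in serum (adjusted p 0.388, 0.110 and 0.318). With LY294002 it was -0.95 (0.201) without both second arrays and -1.15 (0.119) without both first. The call was lost without any of 6 arrays, either deprived E2F1 array, either E2F1 array in serum, the first control virus array in serum or the first with LY294002 (-0.86 to -0.72, adjusted p 0.0599 to 0.0827).

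The 3 probe sets of Cxcl12 did not give one answer. 1387655_at had 240.1 and 274 in E2F1 cells against 435 in control virus cells in deprivation medium, 210.3 and 51.6 against 384 and 243 with LY294002, and 372 and 377 against 581.9 and 472 in serum. E2F1 was again the lower virus in each medium, and its averaged change of -0.86 ± 0.31 had an adjusted p of 0.101. With LY294002 its change was -1.38 ± 0.50 (0.156), or -0.82 (0.136) without both second arrays and -1.94 (0.0286) without both first. 1388583_at ranged from 325 to 1031 on E2F1 arrays and from 575 to 1028 on control virus arrays, with an averaged change of -0.09 ± 0.24 (adjusted p = 0.858). The viruses overlapped on it in all 3 media.

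Cxcl10, the interferon-induced ligand of Cxcr3 on activated T cells, lay below the array median on all 11 arrays. Its signals were 136 and 97.7 in E2F1 cells against 61.9 in control virus cells in deprivation medium, 126 and 61.0 against 82.6 and 49.3 with LY294002, and 80.4 and 86.5 against 53.3 and 75.2 in serum. E2F1 arrays lay higher in deprivation medium and in serum, but the averaged log2 change of 0.49 ± 0.21 did not pass (adjusted p = 0.162).

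Cx3cl1, the membrane-bound ligand fractalkine, was near the offset of 16 added before taking logs, so no fold is given. It read 16.02 to 67.6 on the 6 E2F1 arrays and 16.9 to 87.0 on the 5 control virus arrays, and its averaged log2 change was -0.23 ± 0.35 (adjusted p = 0.724). Both second arrays with LY294002 gave its lowest signals, 16.02 in E2F1 and 16.9 in control virus cells, while the first gave its highest, 67.6 and 87.0.

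Adding LY294002 to serum gave no member call. These comparisons share the arrays in serum with the comparison of deprivation and with the E2F1 effects above. In E2F1 cells 7 of the 8 probe sets had lower means with LY294002 than without, the representatives having a median log2 change of -0.63 against -0.05 over all probe sets, and in control virus cells 6 of 8 did, with a median of -0.36 against 0.02. The log2 change of Ccl2 was -1.63 ± 0.77 in E2F1 cells (adjusted p = 0.472) and -1.38 ± 0.77 in control virus cells (0.777). For Il6 the changes were -1.21 ± 0.28 (0.413) and -0.44 ± 0.28 (0.782), and for Cxcl1 -0.69 ± 0.44 (0.551) and -0.75 ± 0.44 (0.777). Over all probe sets 0% were called in E2F1 cells and 0% in control virus cells, with 1769 and 1050 at an unadjusted p under 0.05, of which 2 and 0 were member probe sets. Il6 was lower on both E2F1 arrays with LY294002 (149 and 76.3) than on both without (269 each), and Ccl2 likewise lay lower with than without in both viruses. Such separation is common here: arrays with and without LY294002 did not overlap for 43.7% of all probe sets in E2F1 cells. In control virus cells the share was 37.5%.

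The size of these differences turned on which arrays with LY294002 were used. Without both second arrays, the log2 change of Ccl2 was -0.51 in E2F1 cells and -0.43 in control virus cells. Without both first arrays it was -2.76 and -2.33. That of Il6 in E2F1 cells was -0.79 without the second arrays and -1.63 without the first, and that of Cxcl1 -0.01 and -1.37. These fits were added after seeing the data and leave 1 array for each virus with LY294002, so only the changes are given here. The second E2F1 array with LY294002, kept without the first arrays, had the highest 3' to 5' difference (0.90), whose part was not tested. For Ccl2, the first array exceeded the second by more (4.83-fold in E2F1 cells and 3.83-fold in control virus cells) than the mean without LY294002 exceeded that with it (3.11-fold and 2.60-fold).

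Deprivation against serum gave no member call, with differences on both sides of 0. The deprived arrays also had higher 3' to 5' differences (0.51 to 0.76) than the arrays in serum (0.12 to 0.19). The part of this in the changes below was not tested. Il6 was higher on both deprived E2F1 arrays than on both in serum (log2 change 1.41 ± 0.28, adjusted p = 0.0879), and in control virus cells the change was 0.43 ± 0.35 (0.637). Cxcl1 stood lower in deprived control virus cells, at 1052 against 2446 and 3191 in serum (-1.40 ± 0.54, adjusted p = 0.312), and in E2F1 cells the change was -0.43 ± 0.44 (0.623). Ccl2 had the same order, with -1.12 ± 0.95 in control virus cells (0.654) and -0.24 ± 0.77 in E2F1 cells (0.890). Cxcl12 1369633_at was higher in deprivation medium with either virus, by 0.70 ± 0.33 with E2F1 (0.286) and 0.61 ± 0.40 with control virus (0.545). None of the 8 probe sets passed in either comparison (0 of 8), where 0.233% of all probe sets were called in E2F1 cells and 0.24% in control virus cells. Deprived arrays and arrays in serum did not overlap for 60.1% of all probe sets in E2F1 cells and 79.4% in control virus cells. The tests of whether the E2F1 effect differed from that in serum called 0% of all probe sets with LY294002 and 0% in deprivation medium, with 998 and 1542 at an unadjusted p under 0.05.

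Ordered by the group mean of log2 signals, Cxcl1 was highest in E2F1 cells in serum, followed by deprived E2F1 cells, E2F1 cells with LY294002, control virus cells in serum, control virus cells with LY294002 and deprived control virus cells. In this order E2F1 cells with LY294002 overlapped both of their neighbours, and the other neighbours did not overlap. Ccl2 shared the first 2 places, which overlapped, and ended with control virus cells with LY294002. Il6 had deprived E2F1 cells first, then E2F1 cells in serum, deprived control virus cells and control virus cells in serum, none of which overlapped the next, and the 2 groups with LY294002 last, which overlapped each other. Cxcl12 1369633_at ran in another order, with deprived control virus cells at the top and E2F1 cells with LY294002 at the bottom. No share over all probe sets was taken for neighbours in such an order.

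The genes that transmit these signals were described from lists of the pathways, drawn up with earlier results of these data in view. Among 28 measured genes of the NF-kappaB pathway, 6 rose and 1 fell with E2F1 on average, with a median log2 change of 0.09, beside 16.5% of all probe sets called and a median of -0.04 over them. Traf3, an adaptor of the noncanonical branch, rose (0.86 ± 0.10, adjusted p = 0.00232), with signals of 892 to 1530 on E2F1 arrays and 524 to 685 on control virus arrays. Nfkbia, the inhibitor IkappaB-alpha and itself a target of the factor, rose by 0.78 ± 0.11 (adjusted p = 0.00359; 646 to 1016 against 326 to 593). Rela, the activating subunit p65, rose by 0.75 ± 0.11 (0.00418), and Chuk, the kinase IKK-alpha, by 0.93 ± 0.14 (0.00432; 631 to 969.7 against 289.7 to 510.5). The arrays of both viruses overlapped for Rela and did not for Traf3, Nfkbia and Chuk, as for 9.64% of all probe sets over the 11 arrays. Map3k7, the kinase TAK1, and Relb, a noncanonical subunit, rose too (0.79 ± 0.12 and 0.51 ± 0.12), and Tnfrsf1a, the main receptor of tumour necrosis factor, fell (-0.60 ± 0.11). Apart from Relb, which lost its call in 7 of 19 alternatives, these 7 calls held in every alternative run for the average.

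With LY294002, 5 of the 28 NF-kappaB pathway genes rose with E2F1 and 0 fell, beside 5.41% of all probe sets called. Chuk rose by 1.22 ± 0.22 (adjusted p = 0.0255), Nfkbia by 0.93 ± 0.17 (0.0271), Traf3 by 0.85 ± 0.17 (0.0324) and Rela by 0.84 ± 0.17 (0.0364). Traf2, an adaptor of the tumour necrosis factor receptor, had the largest of these changes (1.92 ± 0.25, 0.0118), but its signals of 36.9 to 125 on E2F1 arrays and 11.1 to 82.4 on control virus arrays over all media lie near the offset. The calls with LY294002 of Chuk, Nfkbia, Traf3 and Rela were lost in 7, 8, 13 and 15 of 21 alternatives, and that of Traf2 in 2 of 20. All 5 missed the threshold without both second arrays (0.76 to 1.46, adjusted p 0.0801 to 0.137), and all but Traf2 (2.38, 0.0286) without both first (0.89 to 1.08, adjusted p 0.0553 to 0.0865). In deprivation medium, where 2.87% of all probe sets were called, Map3k7 (1.25 ± 0.23, adjusted p = 0.0372) and Traf3 (1.15 ± 0.20, 0.0336) rose, each call lost in 9 of 20 alternatives, and in serum 0 of 28 were called.

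Among 21 genes of Il6 family signalling, 3 fell and 2 rose on average, with a median of -0.12, beside 16.5% of all probe sets called and their median of -0.04. Il6st, the shared signalling subunit gp130, fell by 0.70 on the log2 scale (-0.70 ± 0.14, adjusted p = 0.0146), with signals of 763 to 1466 on E2F1 arrays and 1278 to 2207 on control virus arrays, and its other two probe sets fell as well (-0.71 and -1.01, adjusted p 0.0207 and 0.00520). Stat3, the transcription factor downstream of it, fell (-0.86 ± 0.12, adjusted p = 0.00400; 981 to 2233 against 1689 to 3376), also on its second probe set (-0.64, 0.0175), and with LY294002 by -1.001 ± 0.20 (0.0326), a call lost in 13 of 21 alternatives, among them both fits without paired arrays with LY294002 (-0.83, 0.167, and -1.18, 0.0704); its second probe set with LY294002 had -0.84 (0.0701). Il11ra1, the receptor of interleukin 11, fell too (-0.93 ± 0.16, adjusted p = 0.00713). The kinase Jak2 (0.59 ± 0.11, 0.0118) and the phosphatase Ptpn11 (0.55 ± 0.11, 0.0124) rose, the other probe set of Ptpn11 having 0.37 (0.162). With LY294002 Ptpn11 rose by 0.88 ± 0.17 (0.0317), a call lost in 13 of 21 alternatives, and its other probe set had 0.28 (0.596). The averaged calls of these 5 genes held in all 19 alternatives.

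**Figure D4:**
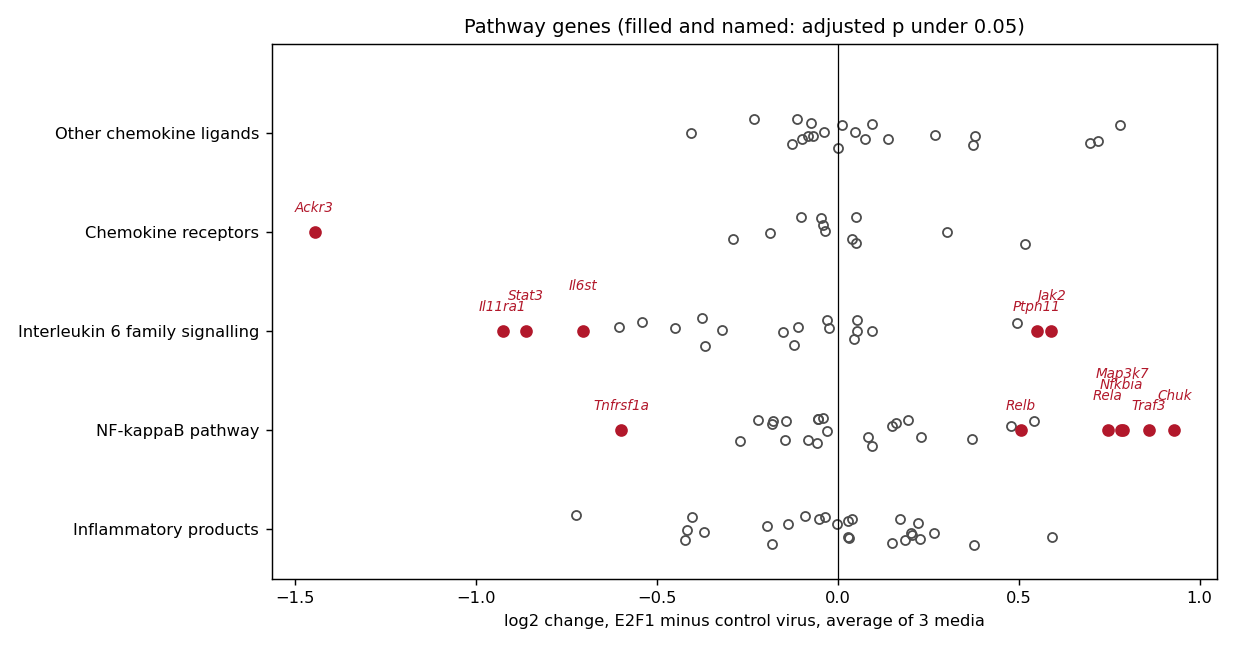
Log2 change (E2F1 minus control virus, average of the 3 media) of each measured gene of 5 pathway lists; filled, named points passed an adjusted p of 0.05 and vertical scatter has no meaning. The NF-kappaB list has 6 genes to the right and 1 to the left, the Il6 family list 2 and 3, and 2 lists have none.

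The chemokine system around the members showed few calls. Of 12 chemokine receptors 0 rose and 1 fell, beside 16.5% of all probe sets called: Ackr3, the scavenger receptor of Cxcl12 (-1.45 ± 0.35, adjusted p = 0.0272), with signals of 137 to 1073 on E2F1 arrays and 514 to 2751 on control virus arrays. That call was lost without any of 6 arrays (-1.50 to -1.29, adjusted p 0.0576 to 0.0765), of which 5 also end the call of Cxcl12 on 1369633_at. Cxcr4, the signalling receptor of Cxcl12, had low signals (33.2 to 72.2 on E2F1 arrays and 10.6 to 36.4 on control virus arrays; adjusted p = 0.168). Of 21 other chemokine ligands 0 were called, with a median log2 change of 0.01, and of 26 inflammatory products such as Tnf, Il1b, Icam1 and Ptgs2 also 0, with a median of 0.03, beside the same 16.5%. The ligands with the lowest adjusted p were Pf4 (0.72 ± 0.21, 0.0555), Cxcl13 (-0.41 ± 0.12, 0.0596), Cxcl2 (0.78 ± 0.29, 0.107) and Cxcl16 (0.70 ± 0.26, 0.109). Many genes of both lists were dim beside the array medians of 173 to 208, and for these the lack of a call says little. Signals reached at most 60.3 for Pf4, 72.4 for Cxcl13, 129 for Cxcl2, 49.4 for Tnf and 121 for Il1b. Cxcl16 (318 to 1010) and Icam1 (627 to 1438) were brighter.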

How the data were processed

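RNA (6 µg per sample) was labelled with biotin and hybridised to the arrays, per the labels' protocols. Each array has 1 deposited value per probe set, a signal intensity that is not on a log scale. MAS5 and RMA appear in the submitters' processing notes; what each was used for, and which version, is not given in the sources used here. Of 15923 probe sets, 57 controls were left out; 12783 of the rest have 1 symbol, 312 several and 2771 none, and 12748 of the 12783 were found in RefSeq (GRCr8) with 0 symbols changed. Log2(signal + 16) was fitted with limma 3.58.1 in R 4.3.3 (1 mean per group, all 11 arrays, eBayes), with 5 residual and 2.88 prior degrees of freedom (prior variance 0.0558). Deprived control virus cells have 1 array, whose spread is taken from the other groups. Changes and standard errors come from this fit, two-sided p-values were adjusted by Benjamini-Hochberg over all 15866 probe sets within each of the 10 comparisons, and a call is an adjusted p under 0.05. The number of arrays limits the precision.

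Tested on simulated data (15866 probe sets, 200 of them changed), the fit called 73.5% of 2-fold changes in the average and 0% within each medium, and of 4-fold changes 99% in the average, 89.5% with LY294002, 88.5% in serum and 72% in deprivation medium. False calls numbered 16 in the average at 2-fold and 11 at 4-fold. Within each medium they numbered 0 at 2-fold. At 4-fold there were 9 with LY294002, 13 in serum and 15 in deprivation medium. The simulated noise was independent between arrays, without the split between arrays with LY294002. The real fits called 858 probe sets with LY294002, 456 in deprivation medium and 56 in serum. These shares therefore do not carry over directly: Rela, at 1.79-fold, was called with LY294002.

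Members, lists and comparisons were chosen with earlier results of these data known. All member probe sets were named, and up to 4 called genes per list; further list genes, Cxcr4, Pf4, Cxcl13, Cxcl2 and Cxcl16, and called cell type markers, were named after their values were seen. A list gene is represented by its brightest probe set. The alternatives were quantile normalization, median centring, offsets of 1 and 64, a filter on the dimmest 30%, a trended and robust eBayes, a replicate block, the compared groups alone and leaving out each array; both fits without the first or second arrays with LY294002 were added after seeing the data.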

Additional observations from a re-analysis of the deposited data

How the results depend on the processing

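No called member or list gene changed sign under any alternative run, and 71 of 1526 member values that were called in neither fit did; calls lost among the members are given above. Of 3 member calls in the average, leaving out 1 array gave 0 to 4, and leaving out both second or both first arrays with LY294002 gave 5 and 5. The 1 call in deprivation medium became 0 with an offset of 1, with the replicate block (Il6 1.80, adjusted p = 0.0660) and with the compared groups alone, 0 to 1 without 1 array, and 3 and 3 without both second or both first arrays with LY294002. For the E2F1 effect with LY294002 the count of 0 became 0 to 1 without 1 array and 1 without both first arrays. LY294002 against none in E2F1 cells gave 0 to 3 calls without 1 array and 6 without both first arrays, and in control virus cells 1 without both first arrays, against 0. Deprivation against serum in E2F1 cells gave 1 call (against 0) with median centring, with an offset of 64 and without both second or both first arrays, and 0 to 1 without 1 array. The cause was not tested. Fits without both first or both second arrays drop the disagreeing pairs from the estimate of the spread. Over all probe sets too, they called more than the main fit in the average, in deprivation medium and for deprivation against serum. They called fewer for the E2F1 effects with LY294002 and in serum. For LY294002 against none, only the fit without both first arrays called more. The ranges over all probe sets given next leave these fits out. Counts over all probe sets also moved: the 2615 of the average became 1540 to 3067 without 1 array, the 456 in deprivation medium 0 to 662, the 858 with LY294002 192 to 1190 and the 56 in serum 0 to 71, and over the other alternatives listed with the methods 2217 to 3078, 0 to 807, 0 to 1311 and 0 to 157. LY294002 against none in E2F1 cells reached 325 and deprivation against serum in E2F1 cells 408 (main count 37) without 1 array. Median centring moved the median of all probe sets by 0.11 at most in a comparison of groups (LY294002 against none and deprivation against serum in E2F1 cells), and by 0.14 in the difference of the E2F1 effect between deprivation and serum. Replicate numbers did not pair the arrays across all groups: second minus first differences correlated over 0.1 in 1 of 10 pairs of groups. That pair was both groups with LY294002 (r = 0.301), so their first and second arrays differed partly alike in both viruses. Deprived control virus cells, with 1 array, could not be checked. The average and the deprived control comparisons could not be fitted without the single deprived control array, and the average has no fit of the compared groups alone, since it already uses all groups.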

Other observations

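Over the 11 arrays, the log2 signals of Ccl2 and Cxcl1 correlated at r = 0.857, those of Ccl2 and Il6 at 0.656 and those of Cxcl1 and Cxcl12 at -0.28. These and the following correlations are descriptions with no test, over arrays that share groups and, with LY294002, a split between first and second arrays. Among 9326 candidate probe sets, the 3 most like Ccl2 were those of Ppp1r2 (r = 0.963), Tcf3 (0.963) and Slfn4 (0.961). Those most like Cxcl1 were Ddx39a (0.969), Fabp5 (0.967) and the chemokine Cxcl16 (0.961). Cxcl12 was most like Slc6a6 (0.969), a taurine transporter, Akap1 (0.967) and Tm4sf1 (0.961). For Il6 they were another probe set of Ppp1r2 (0.967), the matrix protein gene Tnc (0.957) and Atp6v1a (0.940), a subunit of the vacuolar proton pump. Tnc ranged from 29.2 to 1187 over the arrays.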
